A study of Mus musculus with 18 samples.

Results

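The microRNAs (miRNAs) miR-199a-3p, miR-199a-5p and miR-214 were examined in liver of Muta™Mouse exposed to benzo(a)pyrene (BaP). They were taken as the rows of each array with the systematic name mmu-miR-199a-3p, mmu-miR-199a-5p or mmu-miR-214, 3 of the 576 names on the array. All mice were 25-week-old males of transgenic strain 40.6, which carries a bacterial lacZ gene used to score mutations. One set received the olive oil vehicle by gavage (n = 3 arrays) and the others received 25, 50 or 75 mg/kg/day BaP in olive oil (n = 5 arrays per dose). Gavage lasted 28 days, and liver was taken 3 days after the last dose. Each array held RNA from liver tissue as a whole, so fewer cells of a type and less of a miRNA per cell cannot be told apart.

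A miRNA is cut from a hairpin precursor, and either arm of the hairpin (named 5p or 3p) can be kept as the mature strand. Bases 2 to 8 of the mature strand, the seed, pair with target mRNAs. The genes Mir199a-2 and Mir214 lie inside the long non-coding RNA Dnm3os, which runs antisense within Dnm3, the gene of dynamin-3, and serves as their precursor. In general knowledge the pair marks mesenchymal cells. In liver these are chiefly the hepatic stellate cells, which store vitamin A and, once activated by injury, lay down the matrix of fibrosis. BaP itself is converted in the liver to metabolites that bind DNA.

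The mature strands of the 3 members are shown because the probes read these sequences and because the seeds set which members could share targets. Sequences and positions are those of RefSeq for mouse build GRCm38.p6, all 3 members were matched, and capitals mark the seed. The name miR-214 on the array was read as the 3p arm, since the array lists miR-214* separately.

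miR-199a-3p: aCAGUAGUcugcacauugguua

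miR-199a-5p: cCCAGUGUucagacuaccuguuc

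miR-214-3p: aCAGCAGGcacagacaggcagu

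MiR-199a-3p lies at chr1:162217883-162217904 (plus strand) in Mir199a-2 and again at chr9:21496498-21496519 (minus strand) in Mir199a-1, a second copy inside Dnm2. MiR-199a-5p lies at chr1:162217844-162217866 and chr9:21496537-21496559, and miR-214-3p at chr1:162223438-162223459. The hairpin of Mir214 starts 5444 bases after the end of the Mir199a-2 hairpin. Counted from 1 at the 5′ end, the seeds of miR-199a-3p and miR-214-3p differ at 2 positions (U5C and U8G), and the full strands share 8 of 22 positions. The third seed, of miR-199a-5p, was matched to no other name among the 1679 mature mouse names searched. The array name miR-199b* was not matched to a sequence here, so the seed is not shown to be unique.

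The hairpins of Mir199a-2 and Mir199a-1 are shown because both give the same pair of arms, which capitals mark here.

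Mir199a-2: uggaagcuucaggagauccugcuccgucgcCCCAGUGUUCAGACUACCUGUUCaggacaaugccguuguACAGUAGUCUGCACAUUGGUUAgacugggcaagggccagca

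Mir199a-1: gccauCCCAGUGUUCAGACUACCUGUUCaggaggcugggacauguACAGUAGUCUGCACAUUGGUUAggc

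In Mir199a-2 the arms stand at bases 31 to 53 and 70 to 91, with 16 bases between them, and in Mir199a-1 17 bases separate them. The mature miR-199b-3p, cut from Mir199b inside Dnm1 (chr2:32318524-32318545), has the same 22 bases as miR-199a-3p. A signal for miR-199a-3p therefore sums the products of these 3 loci, on chromosomes 1, 9 and 2, and says nothing of Dnm3os alone. MiR-761 (chr4:109017669-109017690) has the seed of miR-214-3p and was on the array.

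miR-761: gCAGCAGGgugaaacugacaca

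It shares 13 of 22 positions with miR-214-3p. Agilent's software detected miR-761 on 0 of 18 arrays, and 0 of its 360 spots were well above background.

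The arrays came from 3 slides. Slide 1 held 7 arrays (1 vehicle and 2 at each dose), slide 2 held 4 (2 at 50 and 2 at 75 mg/kg/day) and slide 3 held 7 (2 vehicle, 3 at 25, 1 at 50 and 1 at 75 mg/kg/day). The share of spots well above background ranged over the arrays from 5.72% to 16.5%, and the number of names detected from 57 to 144. The brightness of an array, taken as the median log2 signal of the 62 probes present on all arrays, set replicates 4 and 5 at 25 mg/kg/day (7.03 and 7.17) and replicate 1 at 50 mg/kg/day (7.28) below the rest (7.74 or higher). Results are therefore also given without these 3 arrays. As checks of exposure and tissue, miR-34a, which p53 induces after DNA damage, rose at 75 mg/kg/day by 2.07 ± 0.18 on the log2 scale (SE; limma adjusted P = 5.4e-07), and miR-122, the defining miRNA of hepatocytes, was detected on all 18 arrays.

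Of the 3 members, 1 was measurable in these livers. MiR-199a-3p was detected on 18 of 18 arrays, while miR-199a-5p, the other arm of the same hairpins, was detected on 2 and miR-214 on 0. Each member had 2 probes with 10 spots apiece, so 180 spots per probe over the series. The flag read here as well above background is the one Agilent's software sets per spot.

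The brighter probe of miR-199a-3p was well above background in 175 of 180 spots (97.2%) and counted as present on all 18 arrays. Before normalisation its median signal was 118.5, 151.25 and 116 in vehicle replicates 1 to 3. At 25 mg/kg/day it was 105, 96, 106.5, 84 and 89. At 50 mg/kg/day it was 73, 84, 132, 137 and 121.5. At 75 mg/kg/day it was 78.5, 73, 97.5, 101.25 and 122.5. The vehicle arrays lay above all arrays at 25 mg/kg/day, while 3 arrays at 50 and 1 at 75 mg/kg/day, all from slides 2 and 3, reached the vehicle range. The negative controls were lower on slide 1, at a median of 42 to 55 against 71 to 76 on slide 2 and 63 to 71 on slide 3. Brightness as defined above was not uniformly low there. The brightest arrays were on slide 1 (vehicle replicate 1 at 8.54, replicate 1 at 25 mg/kg/day at 8.48), and so was replicate 1 at 50 mg/kg/day (7.28).

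The dimmer probe was well above background in 124 of 180 spots (68.9%). It was present on all 3 vehicle arrays and, in order of dose, on 3, 4 and 3 of the 5 arrays of each dosed group. The 5 arrays on which it was absent included the 3 with the lowest brightness. The others were the arrays of 75 mg/kg/day on slide 2, where its signal was 74.75 and 78 and the 95th percentile of the negative controls 78.5 and 77. Divided by the median negative control of the same array, the dimmer probe ran from 1.01 to 1.74 (median 1.23). The brighter probe ran from 1.18 to 2.63 (median 1.72), so background made up a large part of either signal.

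MiR-199a-5p gave signal near the background throughout. One of its probes was well above background in 8 of 180 spots and the other in 2 of 180. The first counted as present on 1 array alone, replicate 1 at 25 mg/kg/day, where 70.0% of its spots passed at a median signal of 50.75. Over all arrays the median signals of the 2 probes ran from 46 to 73.5 and from 40 to 69.25. Divided by the median negative control of the same array, the first probe ran from 0.906 to 1.18 and the second from 0.891 to 1.01.

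The arrays on which Agilent's software detected miR-199a-5p were vehicle replicate 1 and replicate 1 at 25 mg/kg/day. Both were on slide 1, and they had 115 and 144 names detected, the latter being the most of any array. The passenger strand miR-199b*, the 5p-side relative, was detected on 4 arrays, vehicle replicates 1 and 2 and replicates 1 and 2 at 25 mg/kg/day. Neither was detected on any of the 10 arrays at 50 or 75 mg/kg/day, where 80 to 112 names were detected per array. The part of array brightness in this pattern was not tested.

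No spot of miR-214 was well above background, in 0 of 180 spots for either probe. The median signal ran from 37.5 to 64.5 for one probe and from 39 to 67.75 for the other, which is 0.811 to 0.953 and 0.812 to 1.06 times the negative controls. The opposite arm, miR-214*, had 4 probes, none with a spot well above background. The signal of miR-214 was thus not distinguishable from background at this sensitivity, which does not show that the miRNA was absent.

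**Figure D1:**
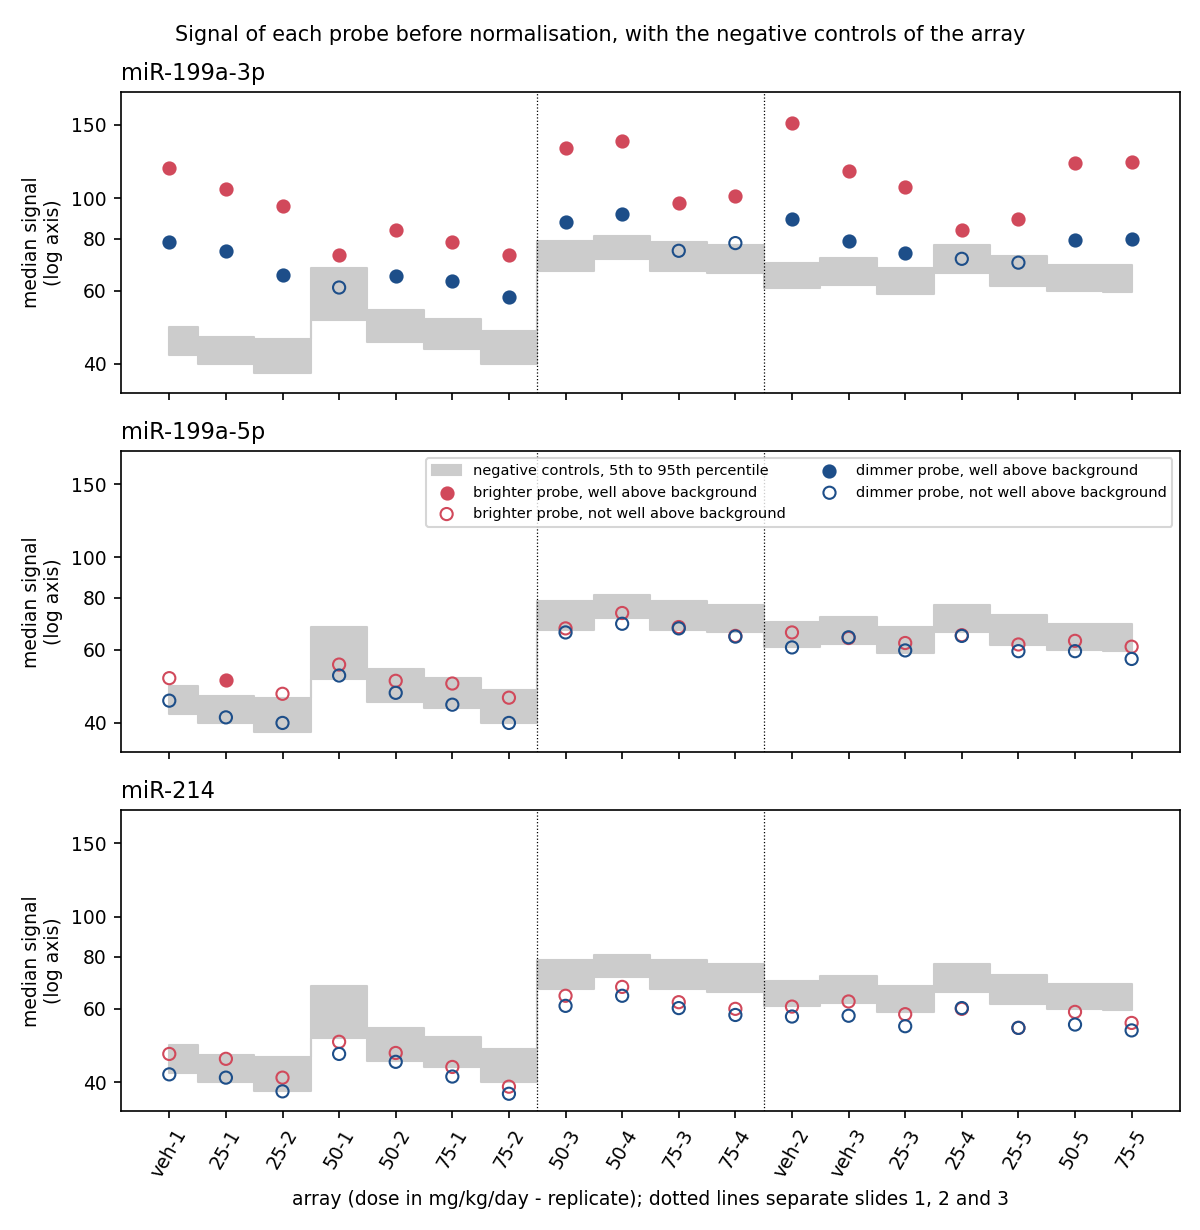
Median signal of the 2 probes of each member on the 18 arrays, on a log axis and before normalisation, against the range of the negative controls of the same array (grey). Filled points mark arrays on which the probe counted as present. The brighter miR-199a-3p probe lies above the grey band on all 18 arrays, and the probes of miR-214 lie in it or under it.

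Since miR-199a-5p and miR-214 were present in no group of arrays, no fold change is given for them and the arms of miR-199a could not be set against each other by dose. Tested with all 576 names kept, neither passed an adjusted P of 0.05 in any comparison. With limma, 75 mg/kg/day against vehicle gave an adjusted P of 0.142 for miR-199a-5p and 0.282 for miR-214 (unadjusted P = 0.00381 and 0.0191), and for the slope over dose it was 0.0719 and 0.213. These values compare signals at the background.

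The remaining comparisons are of miR-199a-3p, as the mean of its probes after normalisation. The normalised log2 signal fell with dose. Against vehicle it fell at 75 mg/kg/day by 0.22 ± 0.05 (SE; limma with slide as a block, adjusted P = 0.00931), a signal 13.9% lower (95% interval 7.58% to 19.7%). The slope over dose was a fall of 0.07 ± 0.01 per 25 mg/kg/day (SE; adjusted P = 0.00384). The slope kept its call in 12 of 18 alternatives and lost it, among others, with quantile normalisation (adjusted P = 0.0765), in the authors' table (adjusted P = 0.0530) and over the dosed groups alone (adjusted P = 0.221). At 25 and 50 mg/kg/day the differences were -0.09 ± 0.04 and -0.16 ± 0.05 and did not pass the threshold (adjusted P = 0.451 and 0.0880). The background is not subtracted in these values, and the probes are dim. Estimates with the background subtracted follow below, and which lies nearest the change in the miRNA itself was not tested.

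In vehicle, the normalised log2 signal of miR-199a-3p was 6.57, 6.66 and 6.61 (mean 6.61 ± 0.05, SD, n = 3). At 25 mg/kg/day it was 6.46, 6.48, 6.53, 6.52 and 6.58 (6.51 ± 0.04, SD, n = 5). At 50 mg/kg/day it was 6.42, 6.29, 6.47, 6.57 and 6.49 (6.45 ± 0.10, SD, n = 5). At 75 mg/kg/day it was 6.38, 6.28, 6.36, 6.42 and 6.50 (6.39 ± 0.08, SD, n = 5). The order of the means followed the dose, and the ranges of each group and the next dose up overlapped. Of the arrays at 25 mg/kg/day, 4 of 5 lay below every vehicle array, and at the higher doses all 5 of each group did so. The share of all tested miRNAs that lay apart from vehicle in this way is not given, so these counts only describe miR-199a-3p. At 50 mg/kg/day the nearest array, replicate 4, stood less than 0.01 below vehicle replicate 1. The whole spread over 18 arrays was 0.39 log2 units.

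**Figure D2:**
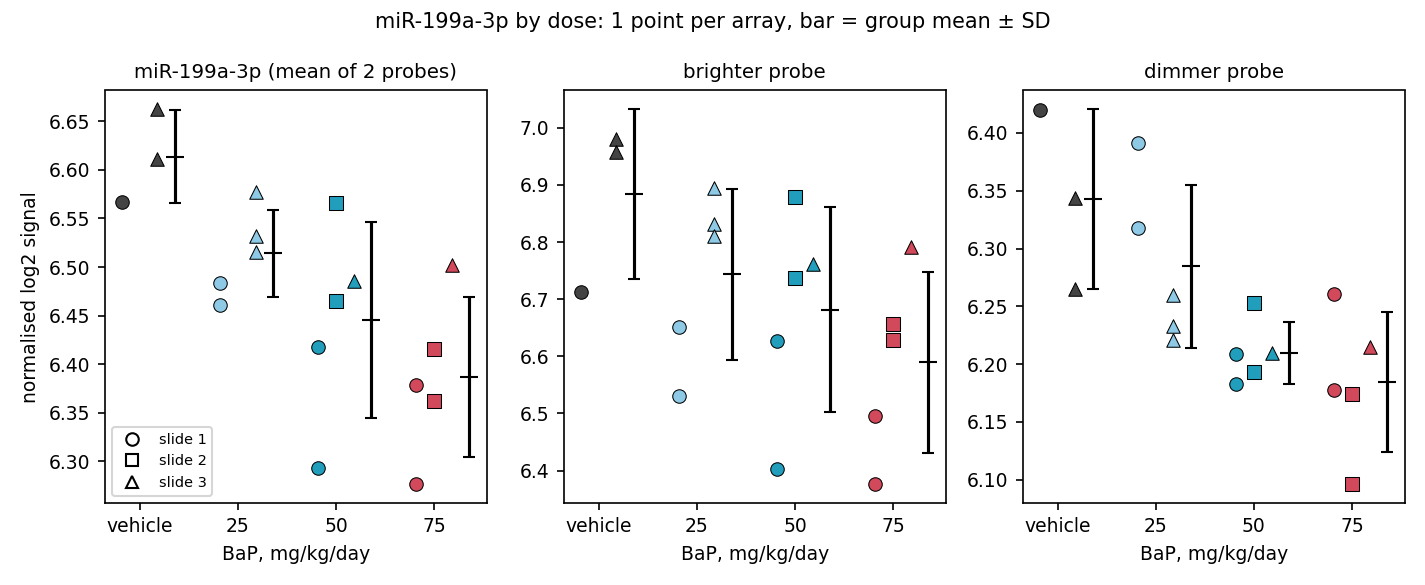
Normalised log2 signal of miR-199a-3p by dose (left) and of each of its 2 probes (middle and right), 1 point per array, with marker shape giving the slide and the bar giving the group mean ± SD. All 5 arrays at 75 mg/kg/day lie below the 3 vehicle arrays in the left panel, and slide 1 lies low for the brighter probe and high for the dimmer one in the vehicle and 25 mg/kg/day groups.

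With limma and slide as a block, 4 of 69 tested miRNAs (5.8%) passed an adjusted P of 0.05 at 75 mg/kg/day, 3 of them lower (4.35%), and miR-199a-3p was one of these. At 50 mg/kg/day 2 of 69 passed (2.9%) and at 25 mg/kg/day 0 of 69 (0%, with 10.1% at an unadjusted P under 0.05). For the slope 7 of 69 passed (10.1%), 5 of them lower (7.25%), miR-199a-3p included. The direction of the calls depended on the scale of the signal. In the processed signal 3 were higher and 0 lower at 75 mg/kg/day, in Agilent's total gene signal 4 and 0, and with array medians centred 1 and 0. For the slope the counts on these scales were 2 and 0, 6 and 0, and 1 and 0. The median log2 change of all 69 was -0.02, -0.02 and -0.03 at the successive doses. By unadjusted P, miR-199a-3p ranked 8 of 69 at 25 mg/kg/day and 3 of 69 at both 50 and 75 mg/kg/day.

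The highest dose differed from the lowest by -0.12 ± 0.04 (SE; limma adjusted P = 0.117) and did not pass, where 2 of 69 miRNAs did (2.9%). The exact two-sided permutation test of the normalised values, without slide, gave P = 0.0536 at 25, 0.0536 at 50 and 0.0179 at 75 mg/kg/day against vehicle, the last being the smallest that 56 arrangements allow. For 75 against 25 mg/kg/day the same exact test gave P = 0.0238 over 252 arrangements. Against vehicle, an exact test that moved labels only within slides reached its lowest possible value at each dose, P = 0.0333 (30 arrangements) for 25 mg/kg/day and P = 0.111 (9 arrangements) for 50 and 75 mg/kg/day. With 9 arrangements a P of 0.05 is out of reach. For the high dose against the low dose the exact test within slides gave P = 0.0833, where the lowest possible over 24 arrangements is 0.0417.

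The direction held against vehicle on both slides that carried it. On slide 1 the differences from the single vehicle array, in order of dose, were -0.09, -0.21 and -0.24. On slide 3, with 2 vehicle arrays, they were -0.10, -0.15 and -0.13. Each dosed array on these slides lay below the vehicle of its own slide, which covers 5 arrays at 25 mg/kg/day and 3 at each higher dose. The share of all tested miRNAs that did so is not given, so these counts only describe miR-199a-3p. On a different measure, the fit over all arrays, the estimate at 75 mg/kg/day was negative for 42 of 69 miRNAs. Slide 2 held no vehicle, and there the arrays of the high dose differed from those of the middle dose by -0.13. The same step was -0.03 on slide 1 and 0.02 on slide 3, and the step itself was not tested.

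Slide, fitted first, explained 40.2% of the variance of miR-199a-3p over the 18 arrays, and dose 67.3% of what remained. The doses were spread unevenly over the slides, so variance shared by both was counted to slide. With the 2 slides that held vehicle the difference at 75 mg/kg/day was -0.18 (adjusted P = 0.0559), past the threshold no longer. Without vehicle replicate 1, the only vehicle array of slide 1, it was -0.20 (adjusted P = 0.101).

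The fall was seen with either probe. In a fit over the 112 probes present, the brighter probe fell by 0.26 at 75 mg/kg/day (limma adjusted P = 0.0165) and the dimmer one by 0.17 (adjusted P = 0.0459). In that fit 8 of 112 probes passed, 5 of them lower. The exact permutation test without slide gave P = 0.0714 for the brighter probe and 0.0179 for the dimmer one at 75 mg/kg/day against vehicle. For the brighter probe these groups overlapped, at 6.38 to 6.79 against 6.71 to 6.98 in vehicle. Both probes were read on the same arrays, so they are not independent of each other. At 25 and 50 mg/kg/day the brighter probe differed from vehicle by -0.12 and -0.17 and the dimmer one by -0.06 and -0.14, with no value past the threshold. The probes stood in opposite order by slide in the vehicle and 25 mg/kg/day groups. In vehicle the brighter probe was at 6.71 on slide 1 against 6.98 and 6.96 on slide 3, and the dimmer probe at 6.42 against 6.34 and 6.26. At the higher doses this order was not seen for the dimmer probe, with means on slides 1 and 3 of 6.20 and 6.21 in the middle dose group and 6.22 and 6.21 in the high dose group.

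With slide and dose means removed, the probes of miR-199a-3p correlated over the 18 arrays at a Pearson r of 0.475 (permutation P = 0.0480, adjusted P = 0.144 over 6 relations) and a Spearman rho of 0.457 (permutation P = 0.0589, adjusted P = 0.118). Without the 2 arrays farthest from the median, r was 0.535. Within a slide the dose means were not removed, so r there includes the difference between doses. Over the 7 arrays of slide 3 r was 0.902 (exact permutation P = 0.000198, adjusted P = 0.00119), and over the 7 of slide 1 it was 0.689 (exact permutation P = 0.101, adjusted P = 0.203). The correlation of miR-199a-3p with array brightness gave r = 0.116 (permutation P = 0.647, adjusted P = 0.776) and rho = 0.183 (permutation P = 0.467, adjusted P = 0.560). Without the 2 arrays farthest from the median, r was 0.157. On slide 1, with dose left in, it gave r = 0.424 and rho = 0.643 (exact permutation P = 0.349 and 0.139, adjusted P = 0.524 and 0.208), and r = 0.824 without the 2 farthest arrays. On slide 3 r was 0.102 (exact permutation P = 0.836, adjusted P = 0.836).

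Array brightness itself moved with dose on slide 1. It was 8.54 on the vehicle array, 8.48 and 8.21 on the arrays of the low dose, 7.28 and 8.19 on those of the middle dose and 7.78 and 7.90 on those of the high dose. On slide 3 the vehicle arrays stood at 8.39 and 7.74 and the array of 75 mg/kg/day between them at 8.18. With brightness as a covariate, miR-199a-3p at 75 mg/kg/day differed by -0.21 (adjusted P = 0.0144), and without the 3 dimmest arrays it also differed by -0.21 (adjusted P = 0.0249). The slope was a fall of 0.07 in both (adjusted P = 0.00463 and 0.00884).

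The scale of the signal changed the size of the difference. In Agilent's processed signal, which is background-subtracted, miR-199a-3p at 75 mg/kg/day was at -0.45 against vehicle (95% interval -0.90 to -0.004, adjusted P = 0.253). In the total gene signal, a background-subtracted sum over a miRNA's probes, it was at -0.42 (95% interval -0.94 to 0.10, adjusted P = 0.325). On that scale the vehicle arrays gave 72.0, 76.1 and 43.5, and those at 75 mg/kg/day gave 34.2, 32.7, 19.0, 22.4 and 53.2, so the groups overlapped. With array medians centred alone the difference was -0.35 (adjusted P = 0.627), where the median of all miRNAs stood at -0.25. Each of these estimates was negative, and none of the 3 passed the threshold. With normexp background correction the difference was -0.21 (95% interval -0.30 to -0.11, limma adjusted P = 0.00928) and kept its call. That method models the background and then adds an offset of 50 to the signal. The offset is about the size of the negative controls, whose medians ran from 42 to 76. This scale is therefore not comparable to the subtracted ones above.

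**Figure D3:**
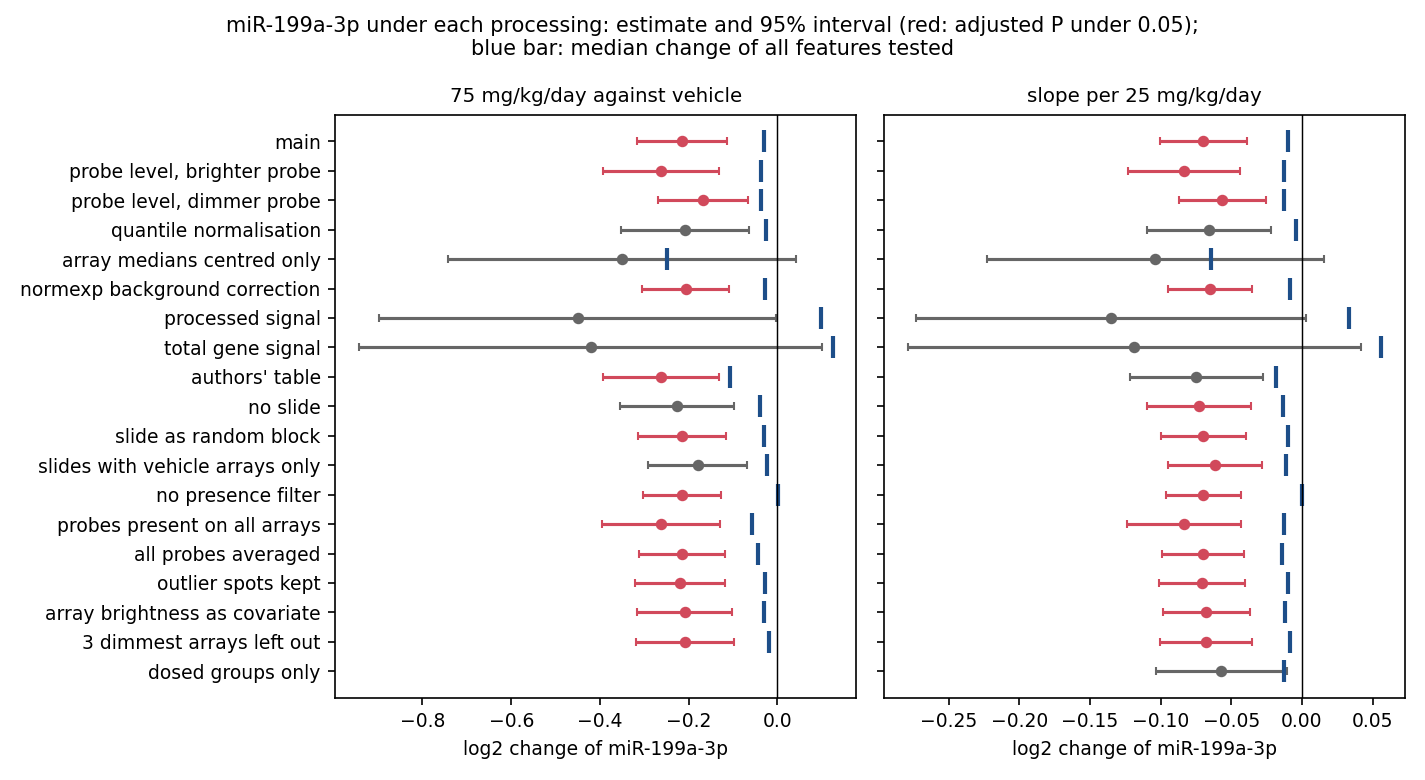
Estimated log2 change of miR-199a-3p with its 95% interval under each processing, at 75 mg/kg/day against vehicle (left) and as a slope per 25 mg/kg/day (right). Red marks an adjusted P under 0.05 and the blue bar marks the median change of all features tested. Every estimate lies below 0, from -0.45 to -0.17 on the left, and the processed and total gene signals have the widest intervals.

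The list of 8 other miRNAs of mesenchymal cells held miR-143, miR-145, miR-145*, miR-140, miR-140*, miR-125b-5p, miR-100 and miR-99a, of which several are also made in other cells. Of these, 4 were tested, and 0 passed at the successive doses or in the slope, where the share over all miRNAs was 0%, 2.9%, 5.8% and 10.1%. A list of 4 cannot be told from shares this low. Their median log2 change at the successive doses was -0.04, -0.08 and -0.07, beside -0.02, -0.02 and -0.03 over all miRNAs. The muscle-wall and fibroblast miRNAs miR-143 and miR-145 were detected on 4 and 0 of 18 arrays. The difference at the high dose was -0.14 for miR-100 (limma adjusted P = 0.0744) and -0.11 for miR-125b-5p (adjusted P = 0.225). It was -0.03 for miR-99a (adjusted P = 0.732) and 0.01 for miR-140.

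Of 7 miRNAs tied to liver fibrosis, 4 were tested and 0 passed at any dose, against 5.8% of all miRNAs at the high dose. These were miR-21, which rises in injured tissue, and miR-29a, miR-29b and miR-29c, which repress collagen genes. Their median at 75 mg/kg/day was -0.03, and miR-21 stood at 0.02 (adjusted P = 0.967). MiR-221 was detected on 11 arrays, and miR-222 and miR-155 on 0.

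Among miRNAs of the other cells of the liver, 0 of 5 hepatocyte, 0 of 1 endothelial and 0 of 3 blood and immune miRNAs tested passed at 75 mg/kg/day, where 5.8% of all miRNAs did. These lists too are small for a share of that size. Their medians were 0.007, -0.06 and -0.01. Within the hepatocyte list miR-148a stood at -0.22 (adjusted P = 0.0669), a difference close in size to that of miR-199a-3p, and miR-122 at 0.11 (adjusted P = 0.4998). The normalised log2 signal of miR-122 ran from 13.3 to 13.8 over all arrays.

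**Figure D4:**
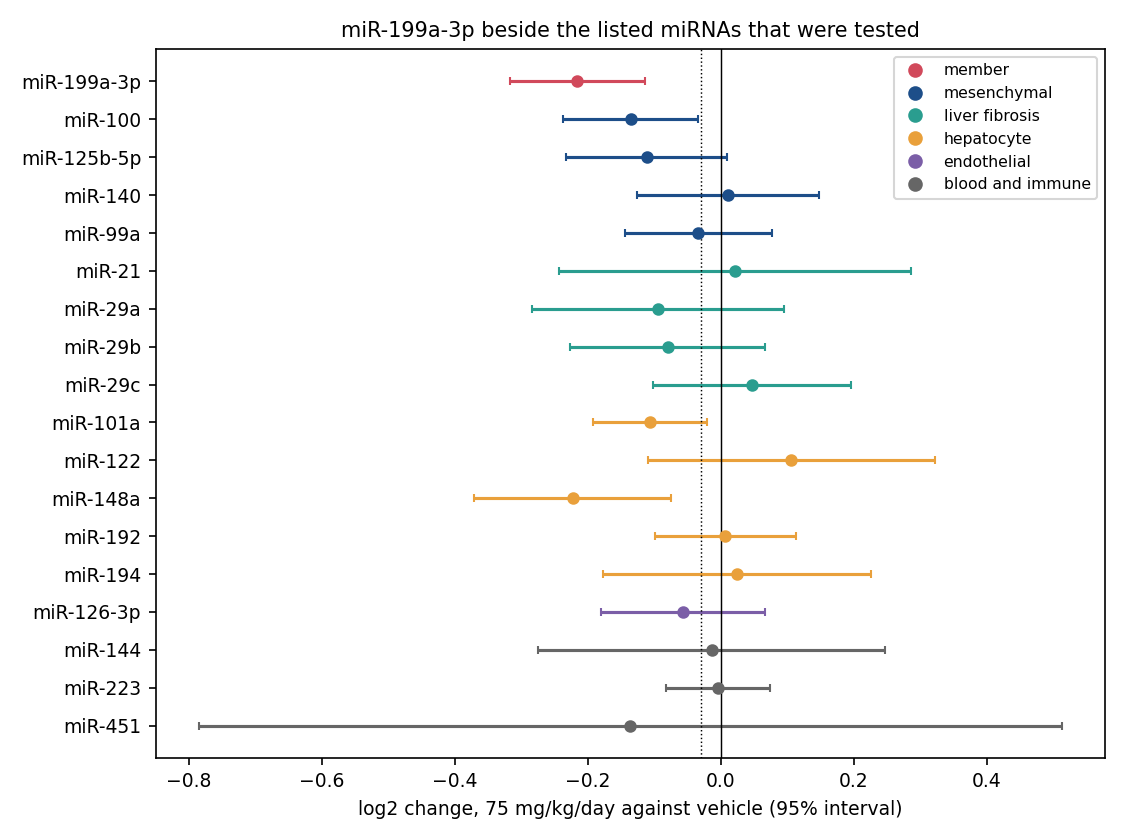
Log2 change at 75 mg/kg/day against vehicle with its 95% interval for miR-199a-3p and the 17 listed miRNAs that were tested, coloured by list. The dotted line marks the median of all 69 miRNAs, at -0.03. MiR-199a-3p at -0.22 is the one shown whose adjusted P was under 0.05.

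By the Pearson r of normalised log2 values over 18 arrays with slide means removed, the miRNAs most like miR-199a-3p were miR-100 (r = 0.777), let-7c (r = 0.682) and miR-130a (r = 0.669). Over all 68 other miRNAs r ran from -0.763 to 0.777 with a median of 0.120. These arrays share dose groups, so the values are a description. With dose means also removed r was 0.546 for miR-100, 0.252 for miR-130a and 0.00069 for let-7c. On that measure miR-497 stood highest (r = 0.621), and its log2 change at 75 mg/kg/day was -0.003. Let-7c, a member of a family that holds back growth genes, fell by 0.27 at 75 mg/kg/day (adjusted P = 0.00533). MiR-130a stood at -0.14 (adjusted P = 0.0669), with a slope that fell by 0.05 per 25 mg/kg/day (adjusted P = 0.0466).

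**Figure D5:**
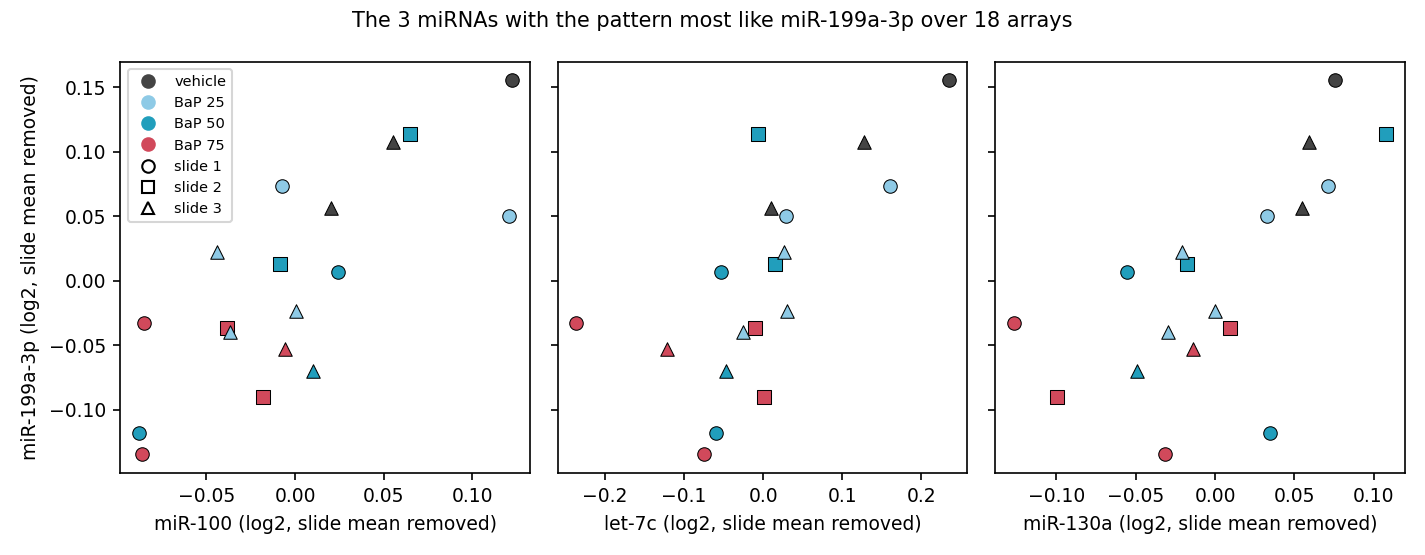
MiR-199a-3p against miR-100, let-7c and miR-130a, each as normalised log2 signal with its slide mean removed, 1 point per array. Colour gives the dose and shape the slide. The 3 vehicle arrays lie above 0 on the vertical axis and the 5 arrays at 75 mg/kg/day below it, with r of 0.777, 0.682 and 0.669.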

How the data were processed

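Hepatic miRNA was measured on 1-colour Agilent arrays, 1 per animal, in 18 mice. The authors labelled total RNA with cyanine 3, and the submitters' processing notes name Agilent Feature Extraction 10.7.3.1. The deposited scanner files give intensity per spot, linear and not normalised between arrays, with flags for background and outliers. The authors also deposited a table of log2 values, used as an alternative, whose column medians lay between 5.74 and 5.76 (centring unknown).

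The median signal was taken without background subtraction, log2 transformed and normalised by cyclic loess over non-control spots. Outlier spots were removed, spots of a probe were reduced to their median, and present probes of a miRNA were averaged. Presence on an array required a share of 0.5 or more of the spots to be well above background, and a probe was kept when 0.8 or more of the arrays of any group had it present. This left 112 probes of 69 miRNAs. Models were fitted to all 18 arrays with limma 3.58.1 in R 4.3.3, with slide as a fixed block, two-sided tests and Benjamini-Hochberg adjustment (threshold 0.05). The signal, loess and slide block follow the methods of the study, which used MAANOVA with residual shuffling where limma was used here. The fits were tested on simulated data. The number of arrays limits the precision.

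Groups came from the exposure label, and replicate numbers only name arrays. The members, miRNA lists and tests were chosen with earlier results of these data known. The miRNAs named were the members, miR-34a and miR-122, the 3 most like miR-199a-3p, those sharing a seed, and listed miRNAs. From the lists, miR-125b-5p, miR-148a and miR-21 were singled out after their values were seen, and miR-497 was also named after its values were seen. Vehicle animals other than these 3 were not analysed here. The methods of the study name more vehicle animals than these 3. They also report that miRNA arrays were removed after a quality check for outliers, without giving their group.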

Additional observations from a re-analysis of the deposited data

How the results depend on the processing

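Values are log2 changes of miR-199a-3p, each with its adjusted P from limma. No estimate turned direction under any of the 17 alternatives (18 for the slope) or 18 fits without 1 array per comparison. With limma, 11 of 17 alternatives passed the threshold at 75 mg/kg/day, and those that did not were quantile normalisation (-0.21, adjusted P = 0.109), centred array medians (-0.35, adjusted P = 0.627), the processed signal (-0.45, adjusted P = 0.253), total gene signal (-0.42, adjusted P = 0.325), no slide term (-0.23, adjusted P = 0.0612) and the slides with vehicle (-0.18, adjusted P = 0.0559). For the slope 12 of 18 passed, and those that did not were quantile normalisation (-0.066, adjusted P = 0.0765), array medians (-0.10, adjusted P = 0.762), processed signal (-0.14, adjusted P = 0.255), total gene signal (-0.12, adjusted P = 0.384), the authors' table (-0.075, adjusted P = 0.0530) and dosed groups only (-0.057, adjusted P = 0.221). The authors' table passed at 25 (-0.21, adjusted P = 0.0484) and 50 mg/kg/day (-0.23, adjusted P = 0.0428). In that table the median change of all miRNAs was -0.11 at 25 and -0.06 at 50 mg/kg/day. At 25 mg/kg/day 7 of 69 passed, all of them lower, and at 50 mg/kg/day 3 of 69 passed. The cause of the differences between settings was not tested, except that dosed groups only and vehicle slides only rest on fewer arrays. Without 1 array each, the changes ran from -0.12 to -0.08 at 25, from -0.18 to -0.13 at 50, from -0.25 to -0.20 at 75, from -0.16 to -0.11 for 75 against 25 mg/kg/day and from -0.08 to -0.06 for the slope. At 75 mg/kg/day 17 of 18 of these passed, the exception being without vehicle replicate 1, and for the slope 18 of 18.

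Array brightness as a covariate, the fits without the 3 dimmest arrays and the correlation of the probes were chosen after seeing the data. No paired analysis was possible because the labels carry no numbers that tie arrays of different groups together. The difference between the arms of miR-199a by dose and the co-variation of the members were not run, since 2 of 3 members were not present. Counts past the threshold over the alternatives were 0 to 7 at 25, 0 to 3 at 50 and 1 to 9 at 75 mg/kg/day. They were 0 to 3 for 75 against 25 mg/kg/day and 1 to 11 for the slope. The number tested differed between alternatives, so these counts are not shares of one total. The 9 at 75 mg/kg/day was of 576 names with no presence filter, and the 11 for the slope was of 112 single probes. The low signal over background of the array limits what can be said of miR-199a-5p and miR-214.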
